A study of Mus musculus with 2 samples.

Results

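Cholesterol synthesis in the liver of mice with steatohepatitis was described with 7 genes that were chosen by name: Hmgcs1, Idi1, Fdft1, Sqle, Lss, Insig1 and Srebf2. All 7 were among the 19059 genes of both deposited count matrices. The first 5 encode enzymes of the pathway, and the other 2 encode proteins that regulate it. None of the 7 takes up LDL, so LDL uptake was followed with a wider list of genes of LDL uptake and sterol traffic.

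Hepatocytes build cholesterol from acetyl-CoA through mevalonate, isoprenoids, squalene and lanosterol. When sterols in the endoplasmic reticulum are low, SCAP carries the transcription factor SREBP2, the product of Srebf2, to the Golgi, where it is cleaved. The released part enters the nucleus and switches on the synthesis genes, Insig1 and Srebf2 itself. When sterols are high, INSIG1 and INSIG2 hold SCAP in place. Dietary cholesterol lowers the transcription of this set in the liver.

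Single-cell gene expression was measured in livers from 2 kinds of littermate, AEG-1fl/fl mice with loxP-flanked alleles of AEG-1 (gene symbol Mtdh) and AEG-1DMAC mice, which carry the same floxed alleles and a LysM/Cre transgene that acts in myeloid cells. All mice were 27 weeks old and had been on HF/HSD, a diet rich in fat, fructose and cholesterol, for 20 weeks from the age of 7 weeks. There was 1 library per genotype, the sex of its mouse or mice is not labelled although the study used both sexes, and whether a library pools livers is not stated in the sources used here. With 1 library per genotype no test between genotypes was possible, and no p-value is given.

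The library labelled AEG-1DMAC held 2581 cells and 79589511 counts, and the library labelled AEG-1fl/fl held 3535 cells and 90440089 counts. Only 10 cell barcodes occurred in both. Mtdh, the deleted gene, ran against the labels: in macrophage-like cells it was at 144 counts per 1000000 counts of the class (CPM, from 193 counts) in the library labelled AEG-1DMAC and at 20.3 CPM (90 counts) in the library labelled AEG-1fl/fl. In hepatocyte-like cells it was at 62.3 and 58.2 CPM. The library labelled AEG-1DMAC held fewer macrophage-like cells, 167 of 2571 kept cells against 558 of 3508. Cell numbers were not used to judge the labels, and whether the labels were exchanged was not tested. Each library is therefore called by its label only, and every direction between libraries below rests on labels that this gene contradicts. Values are given in the order AEG-1DMAC, AEG-1fl/fl throughout.

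Cells were assigned to classes by marker genes. Hepatocyte-like cells, chosen by 8 marker genes, numbered 1083 and 1037 (57932269 and 61339739 counts). Macrophage-like cells numbered 167 and 558, endothelial-like cells 149 and 262, stellate-like cells 91 and 198, and cholangiocyte-like cells 24 and 77. T and NK-like cells numbered 30 and 81, dendritic-like cells 16 and 43, and B-like cells 25 and 37. Another 362 and 465 cells reached the limit of a nonhepatocyte class but held too many hepatocyte marker counts or markers of a further class. A further 621 and 718 cells met the rule of no class, although their median was 329.8 and 296.5 hepatocyte marker counts per 10000. Both sets were left out. Counts of a gene were summed over the cells of a class and divided by the class total. Ranges in parentheses are 95% intervals (Poisson for a level, Clopper-Pearson for a ratio) and cover counting error only, since cells of 1 library are not replicates. Because probes differ in efficiency from gene to gene, levels were compared for the same gene only. A difference was counted where it reached 1.5-fold (a log2 ratio of 0.585) among genes with at least 20 counts in the 2 sums together.

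The genes lie on several chromosomes (GRCm38, GENCODE annotation). Insig1 is at chr5:28071363-28078662 on the plus strand, Lss at chr10:76531588-76557138 (plus), Idi1 at chr13:8885501-8892451 (plus) and Hmgcs1 at chr13:119690379-119708260 (plus). Fdft1 is at chr14:63145150-63179578 on the minus strand, Sqle at chr15:59315077-59331192 (plus) and Srebf2 at chr15:82147181-82205379 (plus). Mtdh is on the same chromosome as the last 2, at chr15:34082694-34145624.

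Promoter windows of 250 bases before to 50 bases after the gene start were taken from RefSeq (GRCm38.p6), where 5 of the 7 genes had an entry. They are Hmgcs1, Lss, Idi1, Insig1 and Srebf2. The windows of Hmgcs1, Insig1 and Srebf2 are shown 5′ to 3′: Hmgcs1 because it had the largest zone ratio of the 5 and alone held the sterol element searched for, Insig1 because it encodes the sterol-dependent brake of the pathway, and Srebf2 because it alone was higher outside hepatocytes in several classes. Capitals mark matches to the sterol regulatory element TCACNCCAC or to the CCAAT box (CCAAT, or ATTGG when read on the other strand).
Hmgcs1, chr13:119690101-119690400, plus strand: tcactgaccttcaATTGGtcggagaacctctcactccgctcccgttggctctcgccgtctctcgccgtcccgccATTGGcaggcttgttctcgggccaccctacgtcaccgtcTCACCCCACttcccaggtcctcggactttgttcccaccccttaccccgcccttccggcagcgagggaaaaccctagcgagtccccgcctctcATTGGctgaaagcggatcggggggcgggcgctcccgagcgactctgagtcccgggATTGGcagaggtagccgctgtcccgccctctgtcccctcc
Insig1, chr5:28071162-28071461, plus strand: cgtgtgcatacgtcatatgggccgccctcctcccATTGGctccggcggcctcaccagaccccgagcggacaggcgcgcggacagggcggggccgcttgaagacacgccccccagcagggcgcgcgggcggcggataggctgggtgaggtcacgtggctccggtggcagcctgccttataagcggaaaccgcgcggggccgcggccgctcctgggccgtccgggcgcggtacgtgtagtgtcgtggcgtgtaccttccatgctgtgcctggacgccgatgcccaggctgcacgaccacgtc
Srebf2, chr15:82147019-82147318, plus strand: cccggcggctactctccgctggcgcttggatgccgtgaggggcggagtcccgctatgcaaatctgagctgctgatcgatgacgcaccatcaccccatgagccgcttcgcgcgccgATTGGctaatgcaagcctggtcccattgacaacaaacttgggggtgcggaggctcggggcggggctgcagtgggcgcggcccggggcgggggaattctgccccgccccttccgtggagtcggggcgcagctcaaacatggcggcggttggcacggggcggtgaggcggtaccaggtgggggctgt

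On either strand, TCACNCCAC was found in 1 of the 5 windows, that of Hmgcs1, where it started 137 bases before the gene start. Of all 32851 promoters in the table, 408 (1.24%) held it. A CCAAT box was in 5 of the 5 windows, against 37.4% of all promoters, and Hmgcs1 had 4 of them. The GC box GGGCGG, counted separately from the CCAAT box, was in 35.7% of all promoters and occurred 3 times in the Hmgcs1 window, 3 times in that of Insig1 and 5 times in that of Srebf2. A match is a run of letters, not a shown binding site, and the absence of a match says only that these letters are not in the window.

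Across cell classes Hmgcs1, Idi1 and Insig1 were at their highest in hepatocyte-like cells in both libraries, Sqle stood far higher in cholangiocyte-like cells, and Srebf2 was higher in most other classes than in hepatocyte-like cells. Hmgcs1, which makes HMG-CoA, was at 192 (189 to 196) and 167 (164 to 170) CPM in hepatocyte-like cells. It was at 142 (103 to 191) and 111 (89.9 to 135) CPM in cholangiocyte-like cells, 109 and 93.2 CPM in macrophage-like cells, 91.8 and 82.8 CPM in endothelial-like cells and 121 and 77.7 CPM in stellate-like cells. The hepatocyte-like level stood above the others in both libraries apart from an overlap with the cholangiocyte-like interval of the library labelled AEG-1DMAC, and the intervals of the other classes overlapped each other.

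Hepatocyte transcripts were present in every class. Over a list of 15 abundant hepatocyte transcripts, macrophage-like cells held 24.4% and 17.7% of the hepatocyte level, endothelial-like cells 28.8% and 22.3%, stellate-like cells 29.1% and 23.9%, and cholangiocyte-like cells 22.6% and 21.4%. At those shares it alone would give 46.9 and 29.6 CPM of Hmgcs1 in macrophage-like cells, below the measured level. A level near this estimate was read as background.

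Idi1, which converts isopentenyl diphosphate to its reactive isomer, was at 22.3 (1291 counts) and 26.5 CPM (1626 counts) in hepatocyte-like cells and at 4.48 and 5.42 CPM in macrophage-like cells. Hepatocyte RNA alone would give 5.43 and 4.70 CPM there, so the macrophage-like level was at background. Fdft1, squalene synthase, was at 65.6 and 84.2 CPM in hepatocyte-like cells, 26.9 and 23.5 CPM in macrophage-like cells and 31.5 and 31.5 CPM in endothelial-like cells. In cholangiocyte-like cells Fdft1 reached 110 and 92.6 CPM, with intervals of 76.2 to 154 and 73.7 to 115 CPM. Lss, lanosterol synthase, was at 22.0 and 24.1 CPM in hepatocyte-like cells and at 13.5 and 11.5 CPM in macrophage-like cells. Idi1, Fdft1 and Lss were thus lower in macrophage-like than in hepatocyte-like cells in both libraries.

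Sqle, squalene epoxidase, the enzyme that makes the epoxide cyclized by lanosterol synthase, had another order. It was at 38.8 (20.1 to 67.8) and 35.0 (23.8 to 49.7) CPM in cholangiocyte-like cells, from 12 and 31 counts, and at 2.81 (2.40 to 3.28) and 5.54 (4.97 to 6.17) CPM in hepatocyte-like cells, from 163 and 340 counts. The log2 ratio of cholangiocyte-like over hepatocyte-like cells was 3.79 (2.80 to 4.63) and 2.66 (2.08 to 3.19). Hepatocyte RNA would give 0.637 and 1.19 CPM of Sqle in cholangiocyte-like cells. The counts came from 9 of 24 and 19 of 77 cholangiocyte-like cells, with at most 3 and 4 in a cell. No count of Sqle was found in endothelial-like cells of either library.

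Insig1, the sterol-dependent anchor of SCAP, was at 334 and 267 CPM in hepatocyte-like cells and at 106 and 95.7 CPM in macrophage-like cells. Its log2 ratio of macrophage-like over hepatocyte-like cells was −1.65 and −1.48. In cholangiocyte-like cells it was at 84.1 and 55.4 CPM, where hepatocyte RNA alone would give 75.6 and 57.1 CPM, so this level was at background. Srebf2 was at 56.5 (3275 counts) and 54.7 CPM (3358 counts) in hepatocyte-like cells. It was at 403 and 412 CPM in dendritic-like cells, 294 and 357 CPM in B-like cells, 200.5 and 189.8 CPM in cholangiocyte-like cells, 195 and 167 CPM in T and NK-like cells, and 94.2 and 107 CPM in macrophage-like cells. Dendritic-like and B-like cells did not differ beyond counting error, nor did cholangiocyte-like and T and NK-like cells, while endothelial-like (67.4 and 64.8 CPM) and stellate-like cells (57.7 and 60.2 CPM) overlapped hepatocyte-like cells.

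**Figure D1:**
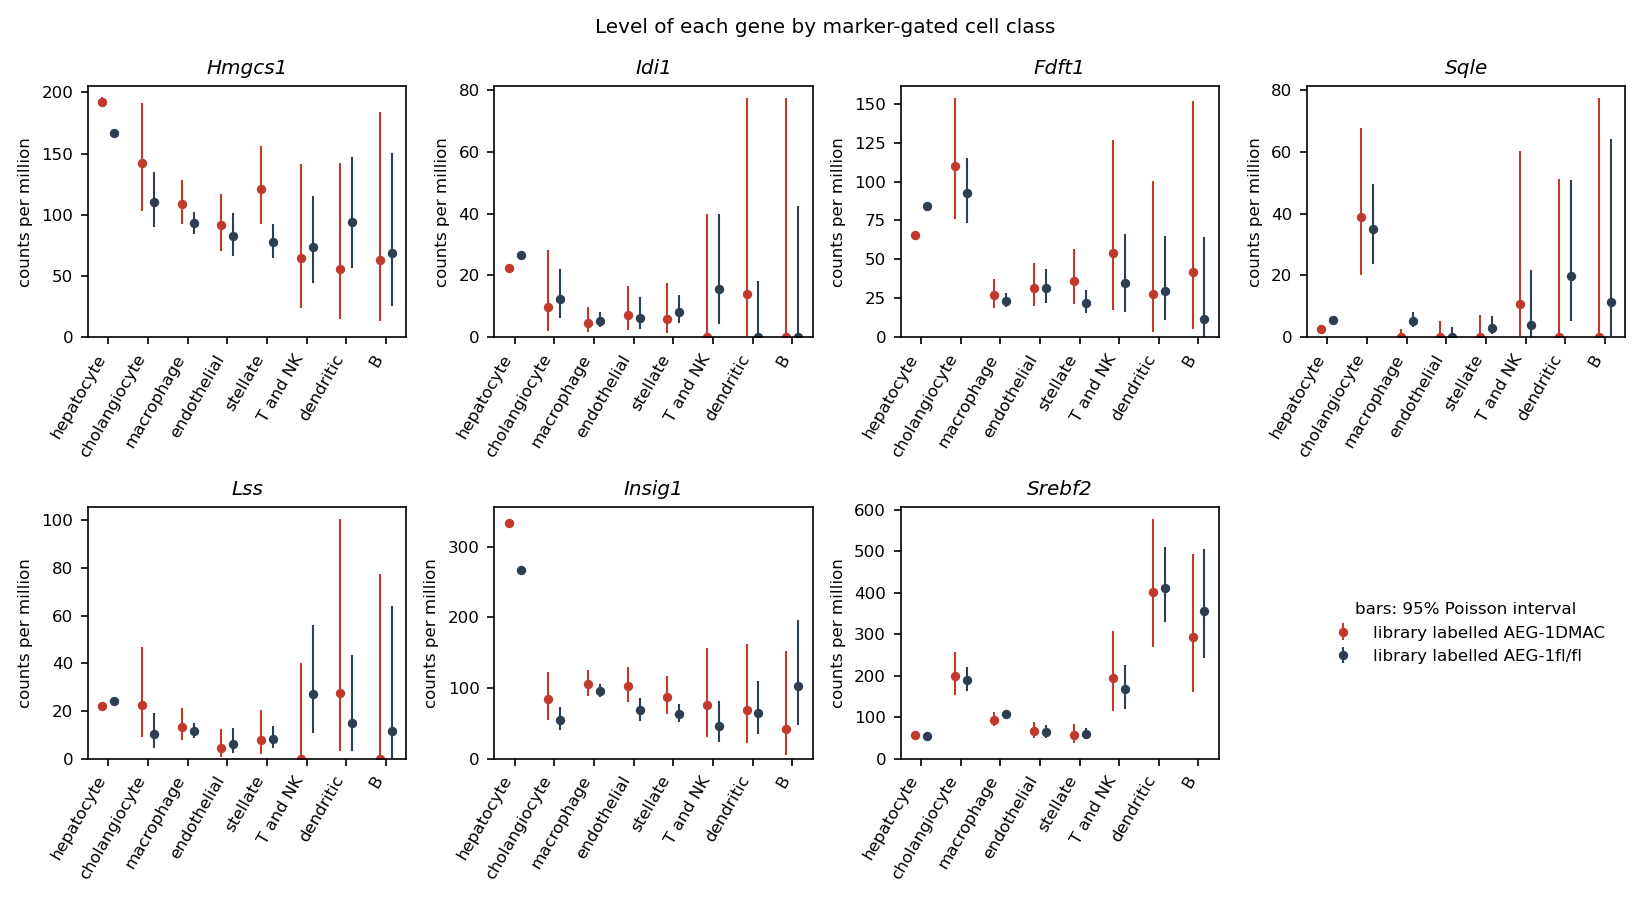
Level of each of the 7 genes in CPM (vertical axis) in 8 marker-gated cell classes (horizontal axis), with 1 point per library and 95% Poisson intervals as bars. Sqle stands highest in cholangiocyte-like cells (38.8 and 35.0 CPM), Srebf2 in dendritic-like cells (403 and 412 CPM), and Insig1 in hepatocyte-like cells (334 and 267 CPM).

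Counted over the set, 5 of 7 genes were at least 1.5-fold lower in macrophage-like than in hepatocyte-like cells in both libraries (17.1% of all genes were), and 1, Srebf2, was higher (49.7% of all genes were). In endothelial-like cells 5 were lower (14.5%) and 0 higher (51.5%), and in stellate-like cells 5 were lower (12.2%) and 0 higher (50.4%). In cholangiocyte-like cells 2 were lower, Idi1 and Insig1 (8.92%), and 2 were higher, Sqle and Srebf2 (53.4%). Srebf2 was also higher in T and NK-like (42.1%), dendritic-like (37.7%) and B-like cells (33.7%), where 2, 4 and 3 of the genes were lower (11.9%, 10.5% and 9.67%). The median gene itself was 0.28 and 0.23 higher (log2) in cholangiocyte-like than in hepatocyte-like cells, and relative to it Srebf2 was higher by 1.545 and 1.56 and Sqle by 3.505 and 2.43. The call for Srebf2 in macrophage-like cells ended when each cell weighed the same (log2 ratio 0.42 and 0.78), when the cells with the most counts were left out (0.29 and 0.87) and when classes came from clusters (0.57 and 0.90). The lower Idi1 and Insig1 in cholangiocyte-like cells ended with classes from clusters (Idi1 −0.44 and −0.65, Insig1 −0.095 and −0.51).

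The wider list of 21 sterol synthesis enzymes, which holds 5 of the 7 genes, went the same way in most nonparenchymal classes. In macrophage-like cells 11 of the 21 were lower than in hepatocyte-like cells in both libraries and 1 was higher, and in endothelial-like cells 15 were lower and 1 higher. The enzyme higher in all 7 other classes was Lbr, the lamin B receptor, a nuclear envelope protein that also reduces a sterol double bond. It was at 12.4 and 12.4 CPM in hepatocyte-like cells, 76.2 and 70.9 CPM in macrophage-like cells and 122 and 132 CPM in endothelial-like cells.

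Macrophage-like cells were also divided into those with more counts of lipid-associated genes (14 and 134 cells) and those with more counts of resident genes (150 and 409 cells). In the library labelled AEG-1fl/fl, Srebf2 was at 139 CPM in lipid-associated and 97.6 CPM in resident cells, a log2 ratio of 0.51 (0.22 to 0.80), and Hmgcs1 was at 110 and 87.9 CPM, a ratio of 0.33 (0.00 to 0.64). Both were under 1.5-fold. In the library labelled AEG-1DMAC, the 14 lipid-associated cells held 8 counts of Srebf2 and 7 of Hmgcs1, too few to resolve such a ratio.

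Along the lobule axis, Hmgcs1 and Fdft1 rose from periportal to pericentral hepatocyte-like cells in both libraries. Hepatocyte-like cells were ordered by the share of Cyp2e1, a pericentral gene, in the sum of Cyp2e1 and Cyp2f2 counts, the latter a periportal gene. The cells were then cut into 3 equal parts (361, 361 and 361 cells, and 346, 346 and 345 cells). All 5 other pericentral markers were higher at the pericentral end and all 6 other periportal markers at the periportal end, in both libraries. The pericentral markers summed to 393, 2172 and 5919 CPM from the periportal to the pericentral part in the library labelled AEG-1DMAC, and to 149, 580 and 2214 CPM in the library labelled AEG-1fl/fl, so the pericentral ends of the libraries did not carry equal marker levels.

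Hmgcs1 was at 137, 192 and 266 CPM from periportal to pericentral in the library labelled AEG-1DMAC and at 103, 168 and 238 CPM in the library labelled AEG-1fl/fl. The log2 ratio of the outer parts was 0.96 (0.90 to 1.03) and 1.21 (1.14 to 1.28). In 10 equal parts of the order it went from 124 to 303 CPM and from 98.2 to 263 CPM, with the lowest value at the periportal end and the highest at the pericentral end. Fdft1 was at 43.8, 62.9 and 96.7 CPM and at 58.6, 79.4 and 116 CPM, with a log2 ratio of 1.14 (1.03 to 1.26) and 0.99 (0.90 to 1.09). Over the same 10 parts Fdft1 went from 38.3 to 116 CPM and from 54.8 to 127 CPM.

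The median gene was 0.16 and 0.17 higher (log2) in pericentral than in periportal cells. Relative to it, the ratio of Hmgcs1 was 0.805 and 1.04, and that of Fdft1 0.99 and 0.825. Both stayed past 1.5-fold under each of the 10 alternative choices tried, between 0.81 and 1.35 for Hmgcs1 and between 0.83 and 1.33 for Fdft1.

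Lss, Idi1, Insig1 and Srebf2 were close to level. Their log2 ratios were 0.33 and 0.35 for Lss, 0.09 and 0.31 for Idi1, 0.23 and 0.23 for Insig1, and 0.40 and 0.33 for Srebf2. Less the median gene, the Insig1 ratio was 0.07 and 0.06. The median of the 7 ratios was 0.33 in each library, beside 0.31 and 0.22 over all genes.

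Sqle ran the other way. It was at 4.52 (3.70 to 5.48), 1.60 and 1.74 (1.18 to 2.47) CPM from periportal to pericentral in the library labelled AEG-1DMAC and at 7.27 (6.24 to 8.43), 4.04 and 4.67 (3.80 to 5.67) CPM in the library labelled AEG-1fl/fl. The log2 ratios were −1.38 (−2.01 to −0.79) and −0.64 (−1.01 to −0.28). Cholangiocyte markers ran the same way over the hepatocyte-like cells, with 6 of 6 detected, 5 of 6 higher in periportal cells in each library, and a summed level of 26.5, 12.01 and 5.95 CPM and of 24.1, 14.3 and 6.75 CPM. When cells that held a count of a cholangiocyte marker were left out (740 and 737 cells remained), the ratio stayed at −1.38 in the library labelled AEG-1DMAC and turned to 0.86 in the library labelled AEG-1fl/fl. In that library 43 of the 340 Sqle counts (12.6%) lay in 1 cell, which also held 37 cholangiocyte marker counts, and without it the ratio was −0.25. The cells with a cholangiocyte marker count were deeper, at a median of 68268 and 82453 counts against 22763 and 21063 in the others. They held 93 of 163 and 210 of 340 Sqle counts, so leaving them out changed depth along with marker counts. The Sqle ratio stayed past 1.5-fold under each of the 10 choices tried in the library labelled AEG-1DMAC, between −1.88 and −0.89, and was under it for most choices in the library labelled AEG-1fl/fl.

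**Figure D2:**
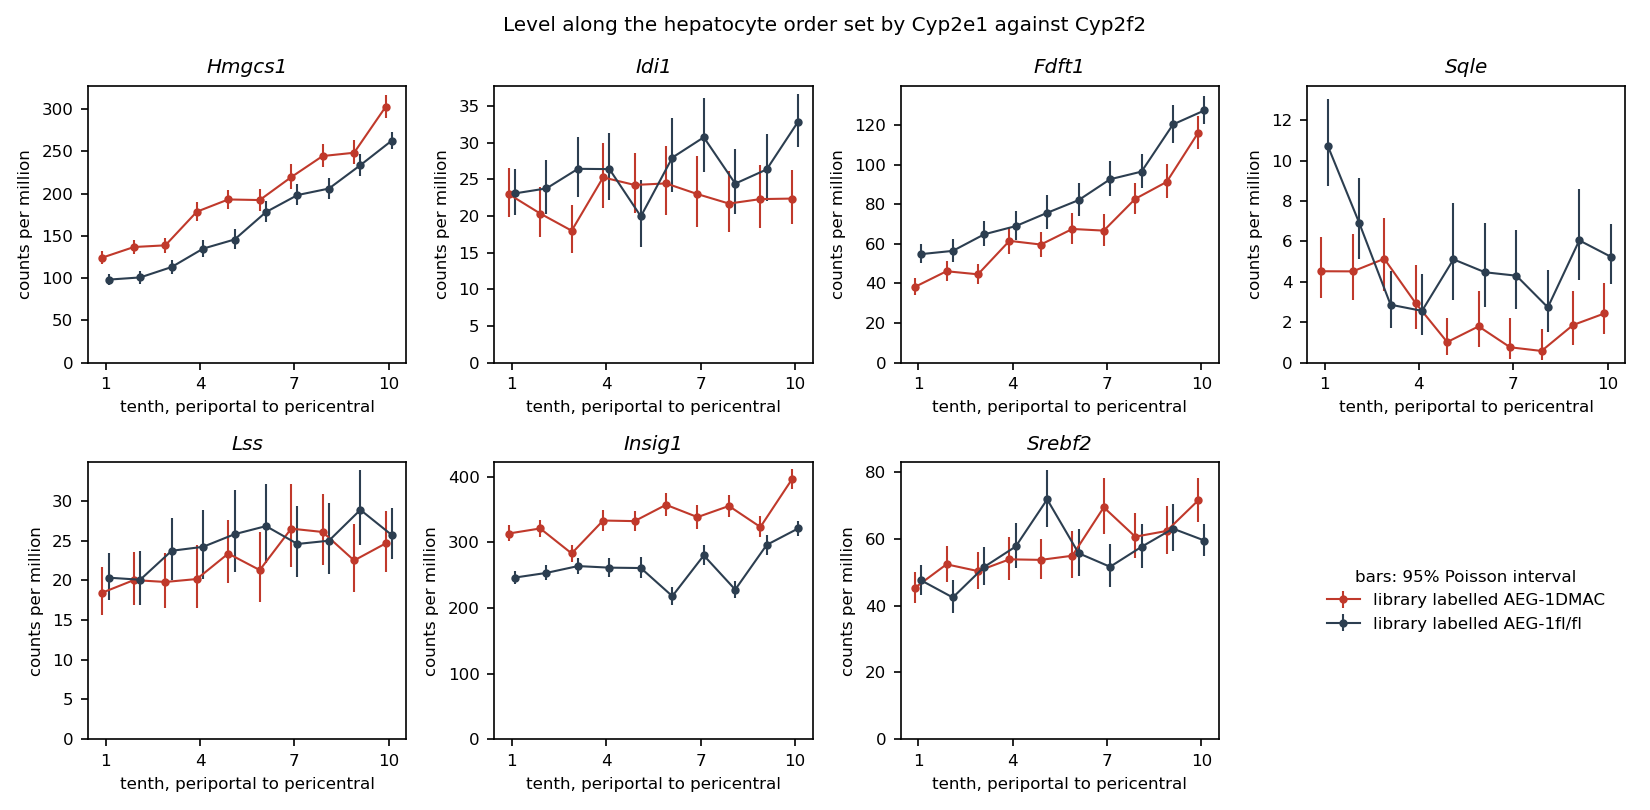
Level of each gene in CPM (vertical axis) in 10 equal parts of the hepatocyte-like cells ordered from periportal to pericentral (horizontal axis), 1 line per library, with 95% Poisson intervals. Hmgcs1 climbs from 124 to 303 CPM and from 98.2 to 263 CPM, Fdft1 from 38.3 to 116 CPM and from 54.8 to 127 CPM, and Sqle starts at 4.52 and 10.8 CPM and ends at 2.43 and 5.24 CPM.

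In both libraries 2 of the 7 genes were at least 1.5-fold pericentral, where 8.38% of all genes were, and 1 was periportal, where 2.74% were. Within 1 library, 24.4% and 12.3% of all genes were pericentral and 5.55% and 5.27% periportal. Among the 21 synthesis enzymes 6 were pericentral in both libraries and 1 periportal, and 16 (76.2%) had a ratio above 0 in both, as 70.1% of all genes did. Less the median gene, 3 were pericentral, Hmgcs1, Fdft1 and Msmo1, beside 4.87% of all genes, and Sqle was periportal, beside 3.8%. The 4 pericentral enzymes besides Hmgcs1 and Fdft1 act at the start, in the middle and at the end of the pathway. Acat2, which makes acetoacetyl-CoA, had log2 ratios of 0.60 and 0.74, and Mvd, mevalonate diphosphate decarboxylase, had 0.90 and 0.64. The C4 demethylation enzymes Msmo1 and Hsd17b7 had 0.94 and 0.77, and 0.86 and 0.69. Of the 10 alternatives, Acat2 fell under 1.5-fold in 4 and 1, Mvd in 0 and 2, and Hsd17b7 in 0 and 1.

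The enzymes short of 1.5-fold in either library spanned the whole pathway. Fdps, which makes farnesyl diphosphate, had 0.54 and 0.485, the sterol dehydrogenase Nsdhl 0.51 and 0.37, and mevalonate kinase, Mvk, 0.41 and 0.39. Phosphomevalonate kinase, Pmvk, had 0.28 and 0.40, Lbr 0.45 and 0.12 and the sterol reductase Tm7sf2 0.55 and 0.06. Cyp51 lay at 0.00 and 0.08. Below 0 in both libraries lay 3 enzymes besides Sqle, all of the last steps: Ebp, the sterol isomerase, with −0.25 and −0.44, Dhcr7, which makes cholesterol from its last precursor, with −0.24 and −0.16, and Sc5d, the desaturase before it, with −0.18 and −0.015.

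Of the 10 genes of SREBP2 regulation, which include Insig1 and Srebf2, 1 was pericentral in both libraries, near the 8.38% of all genes, as for the lists that follow. It was Rnf145, which encodes a sterol-responsive ubiquitin ligase (1.03 and 1.25). Of the 13 genes of LDL uptake and sterol traffic it was Sort1, the sorting receptor sortilin, at 25.3 against 8.06 CPM and 29.5 against 9.66 CPM (log2 ratios 1.65 and 1.61). Of the 10 genes of storage and efflux, Nceh1, a cholesteryl ester hydrolase, was pericentral in both (1.35 and 0.83). With 1 gene each, the lists were not set apart from all genes.

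**Figure D3:**
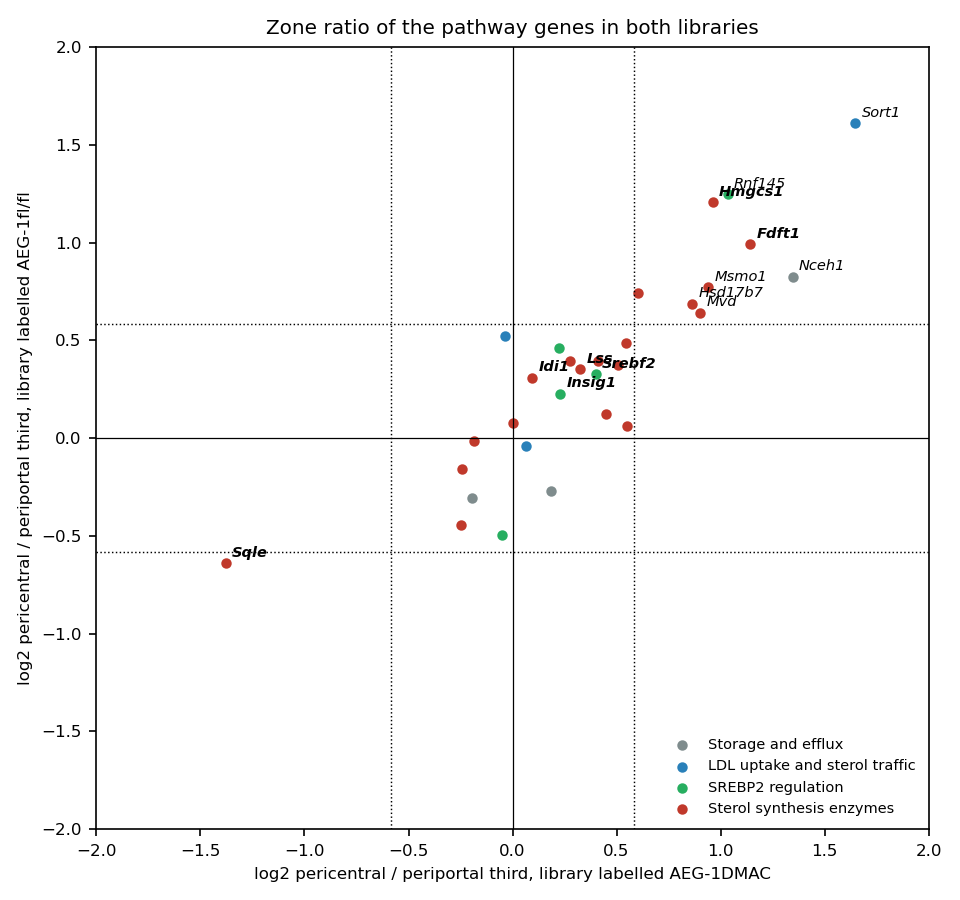
Log2 ratio of pericentral over periportal hepatocyte-like cells in the library labelled AEG-1DMAC (horizontal axis) and in the library labelled AEG-1fl/fl (vertical axis), with 1 point for each gene of 4 pathway lists that the text names and dotted lines at 1.5-fold. Hmgcs1 (0.96 and 1.21) and Fdft1 (1.14 and 0.99) lie in the upper right corner with Sort1 and Rnf145. Sqle (−1.38 and −0.64) is the 1 gene past both lower dotted lines.

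Between the libraries, Sqle alone among the 7 genes differed by 1.5-fold in hepatocyte-like cells. It was at 2.81 CPM in the library labelled AEG-1DMAC and 5.54 CPM in the library labelled AEG-1fl/fl, a log2 ratio of −0.98 (−1.26 to −0.71). That is 1 of 7 genes lower and 0 higher, where 6.87% of all 12761 genes were lower and 5.7% were higher. Fdft1 had −0.36 (−0.42 to −0.30), Idi1 −0.25 (−0.36 to −0.14) and Lss −0.14 (−0.24 to −0.03). Srebf2 had 0.05 (−0.02 to 0.12), Hmgcs1 0.21 (0.17 to 0.25) and Insig1 0.32 (0.29 to 0.35). The median gene was at 0.02, so Idi1, Fdft1, Sqle and Lss were lower in the library labelled AEG-1DMAC while Hmgcs1 and Insig1 were higher, with an interval clear of 0 for 6 of the 7 genes and no replicate to set it against.

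The Sqle difference was lower in the library labelled AEG-1DMAC in all 3 zones, by −0.69 in periportal, −1.34 in middle and −1.42 in pericentral cells. Its size varied with the cells counted, though on few Sqle counts. Sqle was found in 83 of 1083 and 137 of 1037 hepatocyte-like cells. In cells of the lowest, middle and highest total count it was at 2.57, 2.97 and 2.80 CPM in the library labelled AEG-1DMAC and at 5.80, 3.44 and 6.04 CPM in the library labelled AEG-1fl/fl. The middle cells gave a log2 ratio of −0.21, from 33 and 39 counts with overlapping intervals. With each cell thinned to 10000 counts (979 and 886 cells), both libraries had 40 Sqle counts and the ratio was −0.14 (−0.81 to 0.53). The unthinned mean over the same cells was 3.13 and 4.87 CPM. Thinning was 1 random draw that kept few Sqle counts, so it does not show that the difference depends on the cells. Without cells that held a cholangiocyte marker count the ratio was −0.77.

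**Figure D4:**
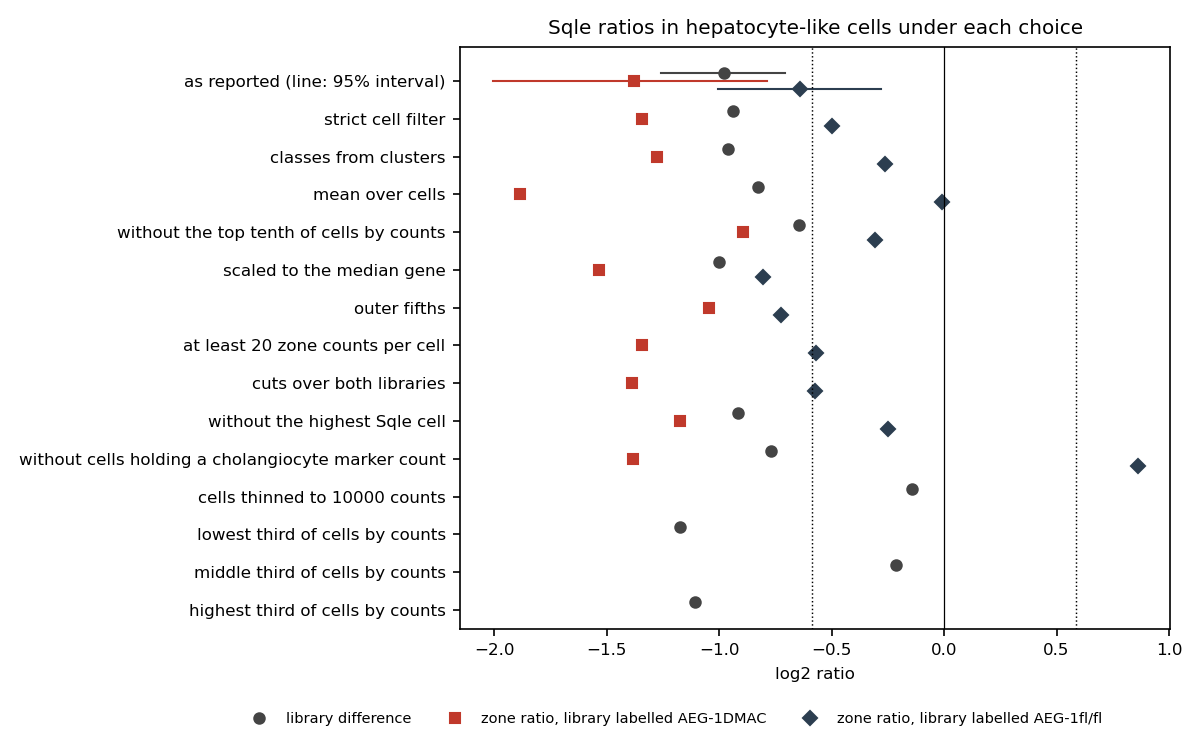
Log2 ratios of Sqle in hepatocyte-like cells (horizontal axis) under each choice of cells or scaling (vertical axis), for the difference between libraries (circles, AEG-1DMAC over AEG-1fl/fl) and for pericentral over periportal cells in each library (squares and diamonds). Lines at the top are 95% intervals and dotted lines mark 1.5-fold. The difference between libraries runs from −1.18 to −0.14, and the zone ratio in the library labelled AEG-1fl/fl runs from −0.81 to 0.86.

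By zone, the other genes kept small differences. Hmgcs1 was higher in the library labelled AEG-1DMAC by 0.41 in periportal, 0.19 in middle and 0.16 in pericentral cells. Fdft1 was lower by log2 ratios of −0.42, −0.34 and −0.27, and Insig1 was higher by 0.28, 0.47 and 0.285. Idi1 had −0.22, −0.05 and −0.44. In cells of the lowest, middle and highest total count Idi1 was at 26.95, 25.2 and 21.0 CPM in the library labelled AEG-1DMAC. In the library labelled AEG-1fl/fl it was at 25.3, 36.9 and 24.05 CPM, so Idi1 was not lower in the lowest group. Hmgcs1, Fdft1, Insig1 and Lss kept their direction in each of these groups.

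In the other classes few counts were at hand. In macrophage-like cells, where 1 of 7 genes was lower (8.5% of all genes) and 0 higher (10.4%), Sqle had 0 counts in the library labelled AEG-1DMAC and 24 in the other. With the total of 0 set to the 3 counts that it allows, this is 2.42-fold lower. The 95% interval of the log2 ratio, which also covers the error of the 24 counts, ended at −0.86, and a mean over cells gave −0.73. Hepatocyte RNA alone would give 0.686 and 0.982 CPM there. In endothelial-like cells 1 of 4 genes with enough counts was higher (7.91% of all genes) and 0 lower (11.2%), Insig1, by 0.59 (0.11 to 1.08). In stellate-like cells 2 of 4 were higher (9.91%) and 0 lower (14.0%), Hmgcs1 by 0.64 (0.18 to 1.09) and Fdft1 by 0.69 (−0.21 to 1.53). In cholangiocyte-like cells 1 of 5 was higher (10.2%) and 0 lower (17.3%), Insig1, by 0.60 (−0.14 to 1.32), while Sqle had 0.15 (−0.95 to 1.15). In dendritic-like cells 1 of 2 was lower (22.6%) and 0 higher (16.9%), Hmgcs1, with 4 against 19 counts. Of the 2 genes with enough counts in T and NK-like cells 0 passed (14.4% higher and 20.9% lower over all genes), and of the 1 in B-like cells 0 passed (18.0% and 17.0%). The Hmgcs1 call in stellate-like cells ended with classes from clusters and with a mean over cells, where the ratio was as low as 0.47, and that of Fdft1 ended with clusters (0.37). The Insig1 call in cholangiocyte-like cells ended under 3 of 6 alternatives.

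The level of hepatocyte transcripts moved with the libraries in the same classes. Of the 15 transcripts, 7 were at least 1.5-fold higher in the library labelled AEG-1DMAC in macrophage-like cells, 5 in endothelial-like cells and 3 in stellate-like cells, and 0 were lower in these classes. Their median log2 ratio was 0.53, 0.37 and 0.32. With hepatocyte RNA subtracted, the Insig1 ratio was −0.85 in macrophage-like cells, past 1.5-fold where the unsubtracted ratio was 0.15, and −0.22 in endothelial-like cells. In stellate-like cells the ratio became 0.88 for Hmgcs1 and 3.09 for Fdft1, the latter from 18 and 38 counts before subtraction. Fdft1 was there at 22.2 CPM in the library labelled AEG-1fl/fl, where hepatocyte RNA alone would give 20.1 CPM. That level was at background, so the size of the Fdft1 ratio after subtraction is not resolved.

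The pathway lists around the 7 genes were compared in the same way, beside 5.7% of all genes higher and 6.87% lower in hepatocyte-like cells. Of the 21 synthesis enzymes, Sqle alone passed 1.5-fold in hepatocyte-like cells, and the median was −0.06 beside 0.04 over all genes. Next came Mvd at 0.46 (0.24 to 0.68) and Cyp51, lanosterol demethylase, at −0.34. Mvk was at −0.26, Fdps at −0.17 and Hsd17b7 at −0.11, while Sc5d was at 0.29, Pmvk at 0.20, Ebp at 0.19, Msmo1 at 0.11 and Acat2 at 0.09. Dhcr7 (0.05), Lbr (0.01), Nsdhl (−0.03) and Tm7sf2 (−0.06) lay nearest to 0. Insig2, the relative of Insig1 whose product also holds SCAP, was at 411 and 187 CPM, a log2 ratio of 1.13 (1.10 to 1.17). It was the 1 gene of 10 in its list to pass. It passed in the same direction in macrophage-like, endothelial-like, stellate-like and cholangiocyte-like cells. In each of these classes Insig2 was lower than in hepatocyte-like cells in both libraries. Hepatocyte RNA, present in every class, was not subtracted for Insig2, so its own difference in these classes is not resolved.

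Abcg5 and Abcg8, which form the sterol exporter of the bile canaliculus, were at 476 and 187 CPM and at 198 and 98.3 CPM (1.35 and 1.01), and Nceh1 was at 43.1 and 71.4 CPM (−0.73). Of the 13 genes of LDL uptake and sterol traffic, Gramd1b, a carrier of plasma membrane cholesterol, was at 17.5 and 5.20 CPM (1.75), and Mylip, a sterol-induced ubiquitin ligase, was at 6.77 and 3.65 CPM (0.89). Insig2, Abcg5, Abcg8 and Gramd1b stayed past 1.5-fold under each of the 12 alternatives tried. Mylip fell under it in 4 of them, down to −0.15, and Nceh1 in 2, to −0.54 after thinning and −0.405 (lowest depth).

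**Figure D5:**
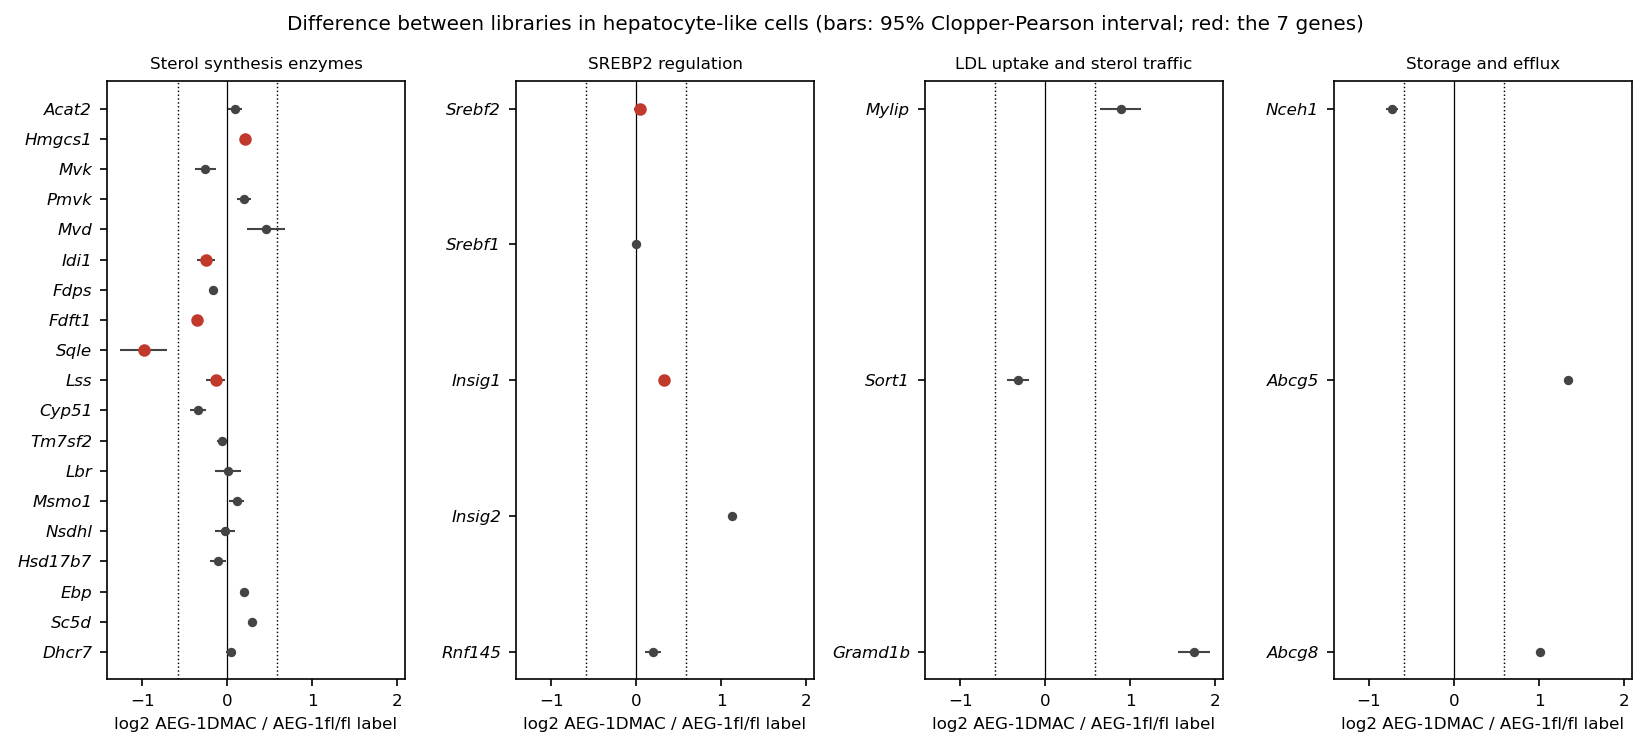
Log2 ratio of the library labelled AEG-1DMAC over the library labelled AEG-1fl/fl in hepatocyte-like cells (horizontal axis) for the genes of 4 pathway lists that the text names (vertical axis), with 95% Clopper-Pearson intervals, dotted lines at 1.5-fold and the 7 genes in red. Sqle (−0.98) is the 1 synthesis enzyme past the lower line, and Insig2 (1.13), Mylip (0.89), Gramd1b (1.75), Abcg5 (1.35) and Abcg8 (1.01) lie past the upper line.

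Genes of several other lists differed between the libraries in the same cells, where 5.7% of all genes were higher and 6.87% lower. Of 14 clock genes 3 were higher (Arntl 1.82, Npas2 2.38 and Clock 0.66) and 3 lower (Per3 −1.10, Dbp −0.84 and Per2 −0.62) in the library labelled AEG-1DMAC, and the time of day of collection is not given in the sources used here. Of 8 genes of the feeding response 1 was higher and 3 were lower, Fgf21 (−1.03), Angptl4 (−0.67) and G6pc (−0.63). Of the 12 alternatives tried for each, Dbp fell under 1.5-fold in 5 (down to −0.22), Per2 in 4 (−0.39), Angptl4 in 4 (−0.45) and G6pc in 6 (−0.04), and the 1 higher feeding gene did in 1. Arntl, Npas2, Clock, Per3 and Fgf21 did in 0. Of 4 sex-linked genes, all on the Y chromosome and all with enough counts, 0 passed. Their median log2 ratio was 0.07, beside 0.04 over all genes. The 3 female-biased genes with enough counts, Sult1e1, Cyp2b9 and Cyp2a4, were higher by log2 ratios of 4.90, 3.92 and 0.78. The first 2 of these were larger than any pathway difference given above. Of 6 male-biased genes Elovl3 was higher (1.46) and Mup20 (−0.92) and Cyp4a12a (−0.82) were lower. The part of clock, feeding and sex-biased expression in the difference of the 7 genes was not tested.

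Within hepatocyte-like cells the 7 genes varied together only weakly. After thinning to 10000 counts a cell held 6.85 and 6.35 counts of the 7 genes on average. Pearson correlations of 1 gene with the sum of the others ran from 0.050 (Sqle) to 0.152 (Insig1) over 979 cells and from 0.086 (Srebf2) to 0.139 (Insig1) over 886 cells, a description with no test, since the cells share a library and most counts are 0 or 1. Among the 10 genes whose thinned counts followed the sum of the 7 most closely, by the mean correlation of both libraries, were Gpam (0.32), Slco1b2 (0.31), Fdps (0.30), Rgs16, Errfi1, Cebpb, Lpin2, Aqp9 and Aacs, against a median of 0.052 over 7728 genes. Of these, Fdps, farnesyl diphosphate synthase, was on the pathway lists.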

How the data were processed

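Liver cells of 1 library per genotype were profiled with a fixed RNA probe kit (10x Genomics). The deposited matrices hold unnormalized whole-number counts for each gene in each cell, made by the authors per the labels with Cell Ranger 7.1.0 on mm10. The study's methods name an earlier release of that tool. Probe counting reads no full transcript, so levels of different genes were not compared.

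Cells were dropped under 100 detected genes or above 10% mitochondrial counts, which left 2571 and 3508. A class was given by marker counts per 10000 counts: at least 150 hepatocyte marker counts and 4000 total counts for hepatocytes, and at most 200 hepatocyte marker counts with at least 80 (macrophage), 40 (endothelial), 60 (stellate), 8 (cholangiocyte), 12 (T and NK), 25 (B) or 12 (dendritic) of their own. Hepatocyte-like cells also had to stay under 25% of the limit of every other class. In a cell of another class, every further class score, as a share of its limit, had to stay under 50% of the highest. Neutrophils (3 and 32 cells) were not compared. Median counts per hepatocyte-like cell were 28836 and 30419. No doublet call was made, and leaving out the 10% of cells with the most counts was an alternative. Counts were summed per class, divided by the total and compared as log2 ratios, with a total of 0 set to 3 counts. Python 3.11.15 with NumPy 2.4.6, SciPy 1.17.1, pandas 2.3.3 and Scanpy 1.11.5 was used, and the steps were tested on simulated data. The median gene was taken over genes of at least 50 CPM on both sides.

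Named were the 7 genes, genes of the other lists past 1.5-fold between libraries or zones, the sterol synthesis list, and the 10 genes most like the 7 by correlation among genes with a mean of at least 0.1 thinned counts. Other genes named for their role (Lbr and Insig2 in other classes) were chosen after their values were seen. Some genes of the lists enter the counts and are not reported here by name, and the figures draw the genes named in the text. The genes and lists were chosen with earlier results of these data known. Gate limits, the division of macrophage-like cells, depth groups and the alternatives without single cells were set after values were seen.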

Additional observations from a re-analysis of the deposited data

Results flagged for a closer look

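Abcg5 had zone ratios of opposite sign. Its log2 ratio of pericentral over periportal hepatocyte-like cells was 0.19 (0.14 to 0.23) in the library labelled AEG-1DMAC, at 462 and 405 CPM, and −0.27 (−0.34 to −0.21) in the library labelled AEG-1fl/fl, at 165 and 199 CPM. The difference was not tested, both ratios were under 1.5-fold, and scaling to the median gene gave 0.03 and −0.44. Its partner Abcg8 had −0.195 and −0.31.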

How the results depend on the processing

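No paired analysis was possible because there is 1 library per label, the replicate number is only a name, and no result comes from a test. For the same reason no library could be left out. Of the values past 1.5-fold, 330 of 333 recomputed differences between libraries, 209 of 210 zone ratios and 220 of 220 class ratios kept their direction, while 132, 45 and 53 of these moved outside the 95% interval of the reported value. The count of 1 gene periportal in both libraries fell to 0 with a strict cell filter, classes from clusters, a mean over cells, without the 10% of cells with the most counts, with at least 20 zone counts per cell, with cuts over both libraries, without the highest Sqle cell and without cells holding a cholangiocyte marker count, and it was 1 with the outer 20% of the order and median scaling. The Sqle zone ratio in the library labelled AEG-1fl/fl turned to 0.86 without cells holding a cholangiocyte marker count, which were deeper cells with most of the Sqle counts. The Sqle difference between libraries (−0.98) was −0.64 without the 10% of cells with the most counts, −0.14 after thinning and −0.21 in the middle depth group, and the count of genes past 1.5-fold fell from 1 to 0 in the last 2. The count higher in macrophage-like cells fell from 1 to 0 with clusters, the mean over cells and without the 10% of cells with the most counts. The count lower in cholangiocyte-like cells fell from 2 to 0 with clusters and to 1 without those 10%. That lower in stellate-like cells went from 5 to 3 with hepatocyte RNA subtracted. There Idi1 and Insig1 fell to 0 in the library labelled AEG-1DMAC and gave no ratio, so they were not counted. Before subtraction they were at 5.97 and 87.6 CPM, below the 6.48 and 97.1 CPM that hepatocyte RNA alone would give. The Insig1 difference turned to −0.014 in cholangiocyte-like cells without the 10% of cells with the most counts and to −0.22 in endothelial-like cells with hepatocyte RNA subtracted, and that of Mylip to −0.15 in the hepatocyte-like cells of lowest depth. The causes were not tested. Thinning, depth groups and the removal of single cells or of cholangiocyte marker cells were chosen after seeing the data. Depth limited Sqle, Lss and Idi1 outside hepatocytes, where a class held 0 to 51 counts of each.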

Other observations

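Genes of fatty acid synthesis, which SREBP1c drives, are the other SREBP set of the liver. Of 10 such genes, 2 were at least 1.5-fold higher in the library labelled AEG-1DMAC among hepatocyte-like cells, where 5.7% of all genes were. They were Scd2 (4.75 and 2.77 CPM, log2 ratio 0.78) and Pnpla3 (7.91 and 4.65 CPM, 0.77). Lower was 1, where 6.87% of all genes were, Thrsp (590.5 and 888.8 CPM, −0.59). The Thrsp ratio was under 1.5-fold in 8 of 12 alternatives, down to −0.37, and that of Scd2 in 2, down to 0.53, while that of Pnpla3 was in 0. Fasn, fatty acid synthase, was at 885 and 762 CPM (0.22), and Srebf1, which encodes SREBP1, at 143.6 and 144.0 CPM. Along the lobule Acly, ATP citrate lyase, which supplies acetyl-CoA to both pathways, was periportal in both libraries (−1.28 and −0.95), and Scd1 lay at −0.50 and −0.54.

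Of the 15 abundant hepatocyte transcripts 1 passed 1.5-fold between libraries, Trf (−0.70), where 6.87% of all genes were lower. Periportal in both were 4, Fga, Hpx, Ambp and Cps1, where 2.74% of all genes were. In the other lists the genes past 1.5-fold along the lobule in both libraries were Angptl4, Fgf21, Cyp2b9, Cyp2a4, Elovl3 and Cyp2d9 at the pericentral end and Pck1 and Sult1e1 at the periportal end.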
